A study of Sus scrofa with 6 samples.

Results

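The genes described here are the 200 most abundant long non-coding RNAs (lncRNAs) of the minipig heart. They were selected on their measured level, among the 812 genes that the expression table types as lncRNA or lincRNA by the mean over all 6 minipigs. The table holds 13288 genes in all, 12476 of them protein-coding. Level is given in FPKM, in which the fragments of a gene are divided by its transcript length and by the size of the library. Because the mean level chose the members, levels are given as a description with no test. The difference between the surgical groups was not itself the rule. The mean includes the DAC samples, however, so a gene that is high in DAC alone can enter the choice. A ranking on the sham samples alone shared 187 of the 200 members.

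Ventricular tissue came from 3 sham and 3 DAC Tibetan minipigs. All were male, and their age is not given in the sources used here. The DAC group had a descending aortic constriction, which narrows the vessel and loads the left ventricle with pressure, and the sham group had the operation without the constriction. Hearts were collected 12 weeks after surgery. Samples are named by group and number, with sham 1 to 3 and DAC 4 to 6. The paper counts them as 3 minipigs per group, and the labels name no shared batch or litter. P-values therefore set the difference between the groups against the spread between minipigs within groups, with a variance moderated over genes.

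Long non-coding RNAs are transcripts that are not known to be translated into protein. Some stay in the nucleus, where they are parts of nuclear bodies or act on transcription near the place where they are made, and others are precursors from which microRNAs or small nucleolar RNAs are cut. Many are transcribed from the opposite strand of a coding gene's promoter, and in the heart several lie beside the genes of cardiac transcription factors. They are as a rule less abundant and less conserved in sequence than messenger RNAs, and few have the same name across species.

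The table itself gave a name to 1 of the 200 members, HSPB7, and a table of gene identifiers gave one to 19, HSPB7 included. All 19 are names of protein-coding genes. None of 66 well-known lncRNA names, MALAT1, NEAT1, MEG3, H19 and XIST among them, was attached to a listed gene, so the members are called by their Ensembl identifiers. RefSeq places MEG3, an imprinted lncRNA, at 1 member, ENSSSCG00000051274 (chr7:121656237-121691190), found after the values were seen, whose log2 difference between the groups was 0.10 and did not pass the test described below. No listed lncRNA overlapped a listed coding gene. The RefSeq annotation of Sscrofa11.1, the assembly also called susScr11, placed them otherwise. At the members' positions, 61 held a RefSeq non-coding gene only, 50 lay inside a RefSeq protein-coding gene, 36 covered one, 14 overlapped one in part and 29 held no RefSeq gene, while 9 were on unplaced contigs and 1 held another kind of entry. "Covered" means at least 80% of the coding gene and "inside" at least 90% of the lncRNA. In all, 100 of 200 members therefore shared a position with an annotated coding gene, and for these the typing as lncRNA rests on the annotation that the authors used. The library kit is not a strand-specific one by its name, and the use of strand in counting is not given in the sources used here. Whether the counting kept apart the reads of overlapping genes, on either strand, is therefore not known. Among the members, 9 overlapped another member and 30 overlapped another listed lncRNA.

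The sums of FPKM over the whole table ranged from 281377 to 308771. The mitochondrially encoded genes held 24.0% to 25.3% of it in the sham minipigs and 27.1% to 32.8% in the DAC minipigs, with the highest share in DAC 5. Of the 8 cardiomyocyte markers, 7 were analysed, with a summed level of 13700 to 14500 FPKM in the sham and 13000 to 16100 in the DAC group, and 1 was lower in DAC. Of 8 fibroblast markers, 5 were higher in the DAC group at an unadjusted P under 0.05 by limma, a linear model with moderated variance, and their sum was 482 to 555 FPKM in the sham and 688 to 780 in the DAC group. Among endothelial markers 1 was higher and 2 lower, among smooth muscle and pericyte markers 1 was higher, and among leukocyte markers 1 was lower. The part of these cell types and of the mitochondrial share in the differences below was not tested. In whole tissue, fewer cells of a type and less RNA per cell cannot be told apart.

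Abundance was very uneven among the 200 members. Their mean level ran from 1960 down to 1.59 FPKM, with a median of 3.26, against a median of 4.87 for the listed coding genes and 0.771 for all 812 lncRNAs. Only 4 members were above 100 FPKM and 24 above 10, while 145 were below 5. At the edge of the choice, ENSSSCG00000041780 at the last rank but one had a mean of 1.61 FPKM and ENSSSCG00000046574 at rank 200 had 1.59, and the next lncRNAs, ENSSSCG00000044496 and ENSSSCG00000047986, both had 1.58. Genes on both sides of the edge thus had nearly the same level.

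**Figure D1:**
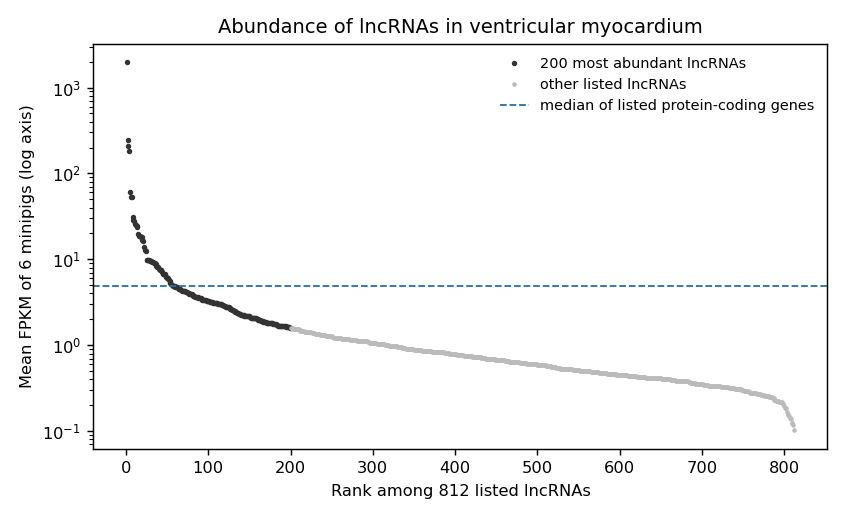
Mean FPKM over the 6 minipigs (log axis) against rank for the 812 listed lncRNAs. Dark points are the 200 members and grey points the other lncRNAs, and the dashed line is the median of the listed coding genes, 4.87 FPKM. The curve falls steeply over the first 24 members, which are above 10 FPKM, and then slowly.

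The 200 members together held 3490, 3760 and 3240 FPKM in the sham minipigs and 5170, 3510 and 3400 in the DAC minipigs, which is 1.12% to 1.83% of the table and 89.1% to 91.3% of the FPKM of all listed lncRNAs. The group means were 3500 ± 261 (SD, n = 3) in sham and 4030 ± 992 in DAC, and the ranges overlapped. DAC 4 alone stood above all the sham samples. A single gene, the first in rank, made up 45.4% to 61.0% of these sums. Without it, the sums were 1810 ± 40.2 in the sham and 1790 ± 230 in the DAC group.

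That first gene was ENSSSCG00000048856, on the minus strand at chr2:6752140-6757157, where RefSeq has the non-coding gene LOC102163816. Its level was 1675, 1912 and 1470 FPKM in the sham and 3154, 1952 and 1616 in the DAC minipigs, which placed it between rank 11 and rank 21 of all genes of a sample. For ENSSSCG00000048856 the difference between the groups was 0.36 ± 0.25 (SE) on the log2(FPKM + 1) scale, DAC minus sham, with an adjusted P of 0.704 by limma with Benjamini-Hochberg adjustment. DAC 4 was the highest of the 6 samples, and the other DAC samples lay within or near the sham range. The sixth most abundant member, ENSSSCG00000044913 (chr2:6797358-6803782, minus strand, RefSeq LOC100513133), lies on the same chromosome, 19.2 kb from FRMD8. It had 58.0, 49.6 and 51.8 FPKM in the sham and 54.5, 61.7 and 41.3 in the DAC minipigs, and the groups overlapped fully. The difference was -0.03 on the log2 scale, and its sign turned in some alternatives.

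Proteins of nuclear speckles and paraspeckles, the nuclear bodies in which some of the most abundant nuclear lncRNAs are known to sit, were followed as a pathway of lncRNAs. Of the 38 tested, none had an unadjusted P under 0.05 by limma, and 1 had without moderation of the variance, 1 without sham 3 and 3 without DAC 6. The DAC mean was the higher one for 30 of 38, with a median log2 difference of 0.11 against -0.02 over all genes tested. SFPQ and NONO, core proteins of paraspeckles, differed by 0.12 and 0.19. SRRM2 and SON, the scaffold proteins of speckles, differed by -0.20 and 0.02. None of these values passed the test.

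Members 2 and 4 in rank lie on unplaced contigs. ENSSSCG00000041875 (AEMK02000489.1, 1845 to 38799) had 261, 269 and 230 FPKM in the sham and 322, 182 and 200 in the DAC minipigs. The groups overlapped because of DAC 4. Without that sample the level was lower in DAC by limma, with a log2 difference of -0.40 and an unadjusted P of 0.0128, against -0.15 with all 6. ENSSSCG00000041596 (AEMK02000695.1, 11543 to 13129) had 214, 45.5 and 232 FPKM in the sham and 298, 153 and 160 in the DAC minipigs. Sham 2 lay far below the other samples, and leaving it out turned the log2 difference from 0.56 to -0.20, neither of which passed the test.

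Several of the most abundant members coincide with coding genes of known function. ENSSSCG00000041935, named HSPB7 after a small heat shock protein of heart muscle, lies at chr6:75166990-75174893 on the minus strand and covers the RefSeq coding gene of that name. It had 172, 232 and 229 FPKM in the sham and 245, 160 and 198 in the DAC minipigs, with full overlap. ENSSSCG00000016379 (HDLBP, the RNA-binding protein vigilin; chr15:139957703-140023048) had 47.6 to 58.4 FPKM in the sham and 41.1 to 61.5 in the DAC group. ENSSSCG00000049407 at chr5:9070437-9090458, which covers CBX7 (a Polycomb protein), had 24.1 to 31.0 in the sham and 21.4 to 38.7 in the DAC group. ENSSSCG00000028322 at chr9:64031854-64037769 covers BTG2, an antiproliferative gene, and ENSSSCG00000006581 at chr4:96030899-96037483 covers S100A16, a calcium-binding protein. The first had 20.2 to 29.9 FPKM in sham and 18.6 to 34.5 in DAC, and the second 23.5 to 27.9 and 19.3 to 29.0. The groups overlapped for all 5, and none passed the test with all 6 samples. ENSSSCG00000006581 had an unadjusted P of 0.042 by limma, with a log2 difference of -0.34, only without DAC 6.

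Among the 12 most abundant members, a difference passed the test for ENSSSCG00000045485 alone (AEMK02000452.1, 2377035 to 2389237, minus strand). Its level was 35.6, 34.8 and 36.6 FPKM in the sham and 22.3, 26.1 and 33.5 in the DAC minipigs. The sham samples were close to each other and all above the DAC samples. The mean fell from 35.7 ± 0.92 to 27.3 ± 5.69 FPKM (SD, n = 3), and the difference of -0.39 ± 0.15 on the log2 scale had an unadjusted P of 0.0363 and an adjusted P of 0.581 by limma. Its nearest coding gene on the contig is RD3L, 12.4 kb away.

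**Figure D2:**
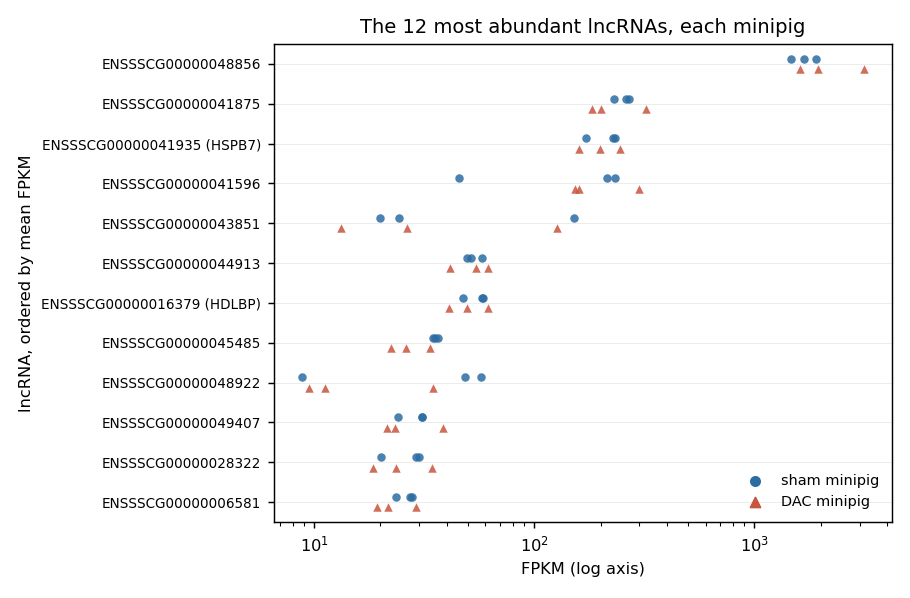
FPKM (log axis) of the 12 most abundant lncRNAs in each minipig, with sham as blue circles and DAC as orange triangles. Only for ENSSSCG00000045485 do all 3 DAC values, 22.3 to 33.5, lie below all the sham values, while ENSSSCG00000043851 and ENSSSCG00000048922 spread widely within both groups.

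The comparison of DAC with sham asked which lncRNAs of the heart differ after 12 weeks of pressure load. All members but 1 reached 1 FPKM in 3 or more samples and were tested. Of these, 28 (14.1%) had an unadjusted P under 0.05 by limma. With no filter on low values it was 29 of 200 (14.5%, against 7.95% of all genes), the 28 among them. That fit also takes in ENSSSCG00000047720, the member below the filter, which was high in DAC 5 and DAC 6 only. This member and ENSSSCG00000043820 are among the 200 through their DAC values, and the 14.5% is taken with both included. The threshold was passed, with the filter, by 8.51% of the 11029 genes tested, by 8.44% of the coding genes and by 7 of 122 other lncRNAs (5.74%). Higher in the DAC group were 17 members (8.54%, against 3.25% of all genes) and lower were 11 (5.53%, against 5.27%). This split was not stable: it was 13 higher and 12 lower when the members were ranked on the sham samples alone, 10 and 9 with each gene's own variance, 7 and 12 without DAC 4, and 10 and 12 without sham 2. At an unadjusted P under 0.01 there were 9 members (4.52%, against 1.98%). None had an adjusted P under 0.05 by limma with Benjamini-Hochberg adjustment over all genes, where the percentage over all genes tested was 0 as well. The smallest adjusted P was 0.270 among the members and 0.106 over all genes. The share depended on the estimate of the variance. With each gene's own variance, 19 members (9.55%) passed against 8.06% of all genes. It also depended on single libraries, with 18 members (9.05%, against 5.72%) without sham 3 and 34 (17.1%, against 9.07%) without DAC 6. The median log2 difference over the members tested was 0.04, against -0.02 for all genes. The log2 difference was positive in 110 and negative in 89 members. The median of the members turned to -0.02 without DAC 4, against -0.014 for all genes. Over the members with at least 5 FPKM it was -0.07, against -0.037 for all genes.

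**Figure D3:**
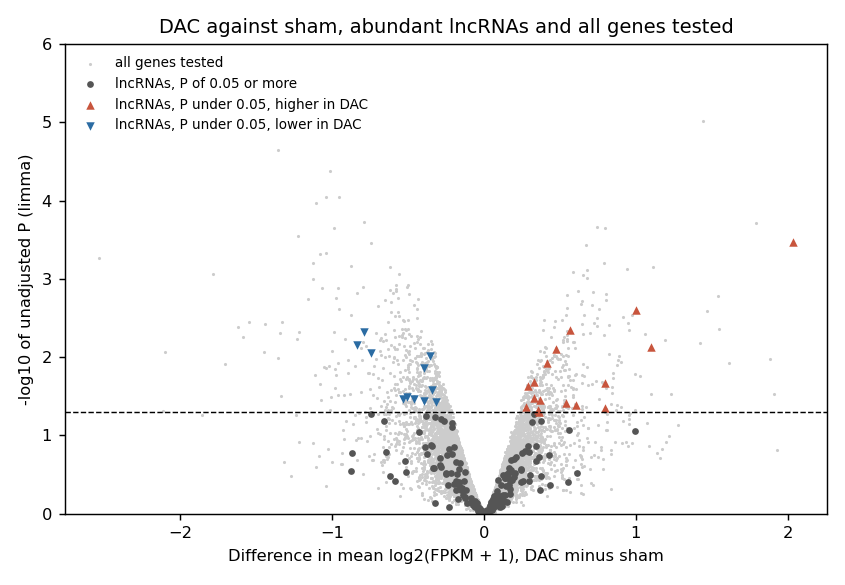
Unadjusted P by limma (-log10) against the difference in mean log2(FPKM + 1), DAC minus sham, for all 11029 genes tested (grey) and the lncRNAs tested (dark points, triangles where P is under 0.05). The dashed line is P of 0.05; 17 lncRNAs above it were higher and 11 were lower in DAC, and ENSSSCG00000043820 at 2.03 has the largest difference among the lncRNAs.

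In 33 members (16.6%) the 3 DAC values lay all above (17) or all below (16) the sham values. Over all genes tested the share was 14.9%, with 6.01% above and 8.91% below. Of the 28 members past the threshold, 24 did not overlap and 4 did. With 3 samples against 3, the smallest P of an exact permutation test (two-sided) is 0.1, so the model's P rests on a variance shared between genes of like level.

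The largest difference was in ENSSSCG00000043820 (chr13:192077654-192080436, minus strand), a gene with no RefSeq entry that lies 169 kb from N6AMT1, a methyltransferase. It had 0.56 FPKM in sham 1, was listed at 0 in sham 2 and had 0.172 in sham 3, against 4.87, 5.95 and 2.08 in the DAC minipigs. All the DAC samples were well above all the sham samples. The log2 difference was 2.03 ± 0.32, with an unadjusted P of 0.000342 and an adjusted P of 0.270 by limma. This member passed the filter on low values through the DAC samples alone. Without it, 27 members (13.6%) passed the threshold.

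A pair of members that rose lie within the RefSeq position of RBM20, the splicing factor of titin and other heart muscle transcripts. ENSSSCG00000046256 (chr14:121193081-121195004) had 2.03, 3.20 and 1.99 FPKM in the sham and 8.02, 4.62 and 5.02 in the DAC minipigs, a log2 difference of 1.0 ± 0.22 with an adjusted P of 0.424 by limma. ENSSSCG00000047983 (chr14:121116743-121124063) had 3.96, 6.19 and 5.46 in the sham and 10.8, 6.42 and 7.11 in the DAC minipigs, a log2 difference of 0.54 ± 0.22. DAC 4 was the highest for both and the groups overlapped for neither. RBM20 itself was not analysed here, and whether these reads belong to its transcript could not be told. The nearest listed coding genes, PDCD4 and SMC3, had log2 differences of 0.26 and 0.26 and did not pass the test.

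ENSSSCG00000023627 (chr15:2579621-2696636, minus strand) carries the name LYPD6, a membrane-anchored protein that modulates nicotinic receptors. Its level rose from 2.07, 4.4 and 1.37 FPKM in the sham to 5.38, 7.74 and 5.92 in the DAC minipigs. Sham 2 was the highest of its group and still below the lowest DAC sample. The log2 difference was 1.10 ± 0.30, with an unadjusted P of 0.00733 and an adjusted P of 0.50 by limma.

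Some members that rose face the start of a coding gene on the opposite strand. ENSSSCG00000043175 (chr2:8919294-8922574) begins 222 bp from SLC3A2, the heavy chain of amino acid transporters. It had 3.80, 5.16 and 4.03 FPKM in the sham and 6.51, 7.83 and 6.27 in the DAC minipigs, a log2 difference of 0.57 ± 0.14 with an adjusted P of 0.482 by limma, while SLC3A2 differed by -0.03. ENSSSCG00000043869 (chr18:42352224-42355507) begins 62 bp from GARS1, the glycyl-tRNA synthetase. It had 2.58, 1.77 and 2.20 in the sham and 3.69, 3.16 and 3.37 in the DAC minipigs, a log2 difference of 0.48, while GARS1 differed by -0.17. ENSSSCG00000043997 (chr14:40356813-40358622) begins 23 bp from MSI1, an RNA-binding protein, and had 5.26, 9.89 and 4.93 FPKM in the sham and 13.5, 13.9 and 8.78 in the DAC minipigs. Its log2 difference was 0.80, and the groups overlapped because sham 2 was above DAC 6. None of these 3 coding genes passed the test.

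ENSSSCG00000042665 (chr13:202523811-202530724, RefSeq LOC110256489) lies 39.2 kb from ETS2, a transcription factor. It had 8.08, 8.01 and 7.24 FPKM in the sham and 9.51, 12.4 and 10.3 in the DAC minipigs, a log2 difference of 0.41 ± 0.12, with no overlap. ETS2 went the other way, from a mean of 36.3 to 23.9 FPKM, a log2 difference of -0.59 with an unadjusted P of 0.00296 by limma. ENSSSCG00000049042 (chr16:39368009-39373997) lies inside PDE4D, a phosphodiesterase that breaks down cAMP, on the opposite strand. It had 4.06, 3.68 and 3.42 in the sham and 5.42, 4.49 and 4.93 in the DAC minipigs, a log2 difference of 0.33, and PDE4D itself was higher by 0.39 with an unadjusted P of 0.0171 by limma.

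The remaining members that the naming rule took among those higher in DAC had smaller differences. ENSSSCG00000044191 (chr9:17234536-17237380) begins 11.8 kb from RAB30, a small GTPase of the Golgi, and had 1.44 to 2.10 FPKM in the sham and 2.15 to 2.93 in the DAC group. ENSSSCG00000048776 (chr2:6224464-6232369), inside PACS1, a sorting protein, had 1.07 to 1.55 in the sham and 1.76 to 2.08 in the DAC group. ENSSSCG00000041401 (chr6:85533589-85538276), 4.84 kb from PHACTR4, had 1.99 to 2.09 and 2.50 to 2.85. The groups did not overlap in these 3, and the log2 differences were 0.37, 0.33 and 0.29. The other 5 that passed were outside the rule and are named after their values were seen: ENSSSCG00000042519 (0.79), ENSSSCG00000040267 or CYS1 (0.61), ENSSSCG00000041127 (0.36), ENSSSCG00000036505 or GNG12 (0.36) and ENSSSCG00000015889 or TANK (0.27), each with its log2 difference. ENSSSCG00000041127 lies 161 kb from BCL6, a transcriptional repressor that was lower in DAC by 0.36 with an unadjusted P of 0.0431 by limma.

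Among the members past the threshold, the strongest falls were in a pair of low level. ENSSSCG00000044727 (chr11:7142754-7147232, RefSeq LOC102166871) had 2.70, 3.44 and 4.90 FPKM in the sham and 1.62, 2.07 and 1.33 in the DAC minipigs, a log2 difference of -0.79 ± 0.20 with an adjusted P of 0.482 by limma. ENSSSCG00000042919, on the contig AEMK02000602.1 and 72.2 kb from SNRPN, an imprinted splicing gene, had 3.78, 2.63 and 2.39 in the sham and 0.985, 0.760 and 1.94 in the DAC minipigs, a log2 difference of -0.84. In both, every DAC sample lay below every sham sample. SNRPN differed by 0.0022.

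For some members that fell, the coding gene at or next to their position fell as well. ENSSSCG00000049476 (chr5:10374707-10426998) is inside the RefSeq position of ELFN2, a synaptic membrane protein, on its strand and 21 bp upstream of the listed gene. It had 3.97, 2.37 and 1.79 FPKM in the sham and 1.17, 1.07 and 1.20 in the DAC minipigs, a log2 difference of -0.75, and ELFN2 differed by -0.88 with an unadjusted P of 0.0296 by limma. ENSSSCG00000041566 (chr7:3055191-3057824), the 14th most abundant member, lies 2.98 kb downstream of PPP1R3G, which brings a phosphatase to glycogen. It had 25.7, 24.3 and 31.5 in the sham and 19.6, 20.6 and 20.7 in the DAC minipigs, a log2 difference of -0.40, and PPP1R3G fell from a mean of 18.1 to 10.9 FPKM, by 0.68 on the log2 scale, with an unadjusted P of 0.00565 by limma. ENSSSCG00000051365 (chr6:13425835-13435384), inside ST3GAL2, a sialyltransferase, had 3.18, 4.30 and 3.61 in the sham and 1.96, 1.80 and 3.32 in the DAC minipigs, and DAC 6 overlapped the sham range. Its log2 difference was -0.51, as was that of ST3GAL2, whose unadjusted P was 0.0186 by limma. Because these genes share positions or lie next to each other, reads of one could be counted for the other.

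Of the other members that fell, ENSSSCG00000033949 (chr2:75929877-76083556) carries the name GNG7, a G protein gamma subunit, and had 17.5, 15.1 and 16.6 FPKM in the sham and 13.2, 8.60 and 13.7 in the DAC minipigs. Its log2 difference was -0.46, while GNG12 of the same family was among the members that rose. ENSSSCG00000036880 (chr3:132425867-132432890) carries the name TMEM18, a nuclear membrane protein, and had 2.45, 2.60 and 2.76 in the sham and 1.83, 1.75 and 1.88 in the DAC minipigs, a log2 difference of -0.35 ± 0.10 with an adjusted P of 0.50 by limma. These groups were narrow and well apart. ENSSSCG00000050529 (chr9:75216088-75219779), inside ASB4, a ubiquitin ligase subunit, fell by 0.54. ENSSSCG00000048556 (chr7:116784013-116787328), which begins 104 bp from GLRX5, a protein of iron-sulfur cluster assembly, fell by 0.34, and ENSSSCG00000046817 (chr4:1225177-1236336), 3.15 kb from GLI4, fell by 0.32. The groups did not overlap in these 3, and none of ASB4, GLRX5 and GLI4 passed the test.

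**Figure D4:**
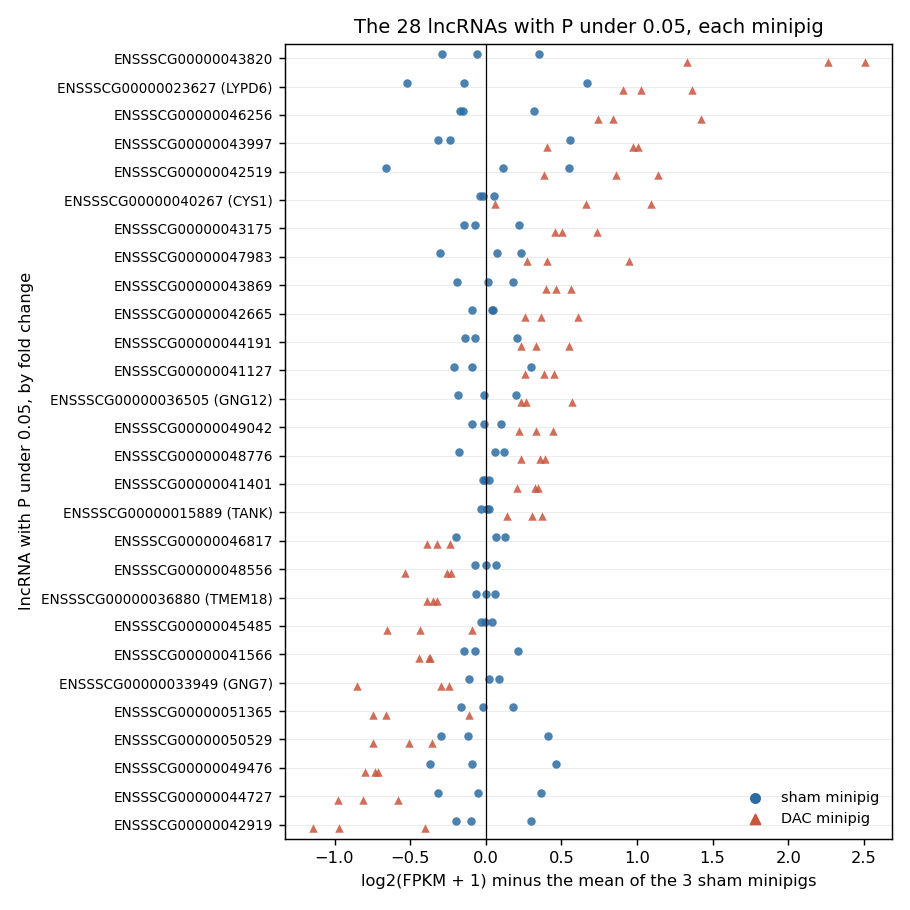
The 28 lncRNAs with an unadjusted P under 0.05 by limma, ordered by their difference. Each point is 1 minipig, with sham as blue circles and DAC as orange triangles, and the axis is log2(FPKM + 1) minus the mean of the 3 sham samples. Most differences are within 1 log2 unit, and the groups overlap in 4 of the 28.

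Of 23 named members past the threshold, 11 stayed past it in every alternative fit that tested them, and none changed sign. The minimum of 5 FPKM left ENSSSCG00000043820, ENSSSCG00000046256, ENSSSCG00000043869, ENSSSCG00000042919, ENSSSCG00000044727, ENSSSCG00000049476 and ENSSSCG00000036880 untested. Ranking on the sham samples alone kept 24 of the 28 members past the threshold. The other 12 of the 23 lost the call without single samples. With each gene's own variance, 7 of these 12 lost it too, with an unadjusted P of 0.058 to 0.106 in the unmoderated limma fit: ENSSSCG00000033949, ENSSSCG00000043997, ENSSSCG00000044191, ENSSSCG00000045485, ENSSSCG00000047983, ENSSSCG00000050529 and ENSSSCG00000051365. ENSSSCG00000046817 lost it with median scaling (0.0539) and with the mitochondrially encoded genes left out (0.0608), and ENSSSCG00000051365 with sample weights (0.0512). Without sham 1, sham 2, sham 3, DAC 4 or DAC 5, the unadjusted P by limma was 0.0667 to 0.0995 for ENSSSCG00000045485 and 0.0502 to 0.066 for ENSSSCG00000041401. ENSSSCG00000043997 (0.0674 to 0.073) and ENSSSCG00000044191 (0.0589 to 0.111) lost it without sham 1, sham 3, DAC 4 or DAC 5, and ENSSSCG00000047983 (0.0644 to 0.126) without sham 1, sham 3 or DAC 4. ENSSSCG00000033949 (0.0593 to 0.0927) lost it without sham 1, sham 3 or DAC 5, and its log2 difference was then as small as -0.27. ENSSSCG00000051365 (0.0664 to 0.101) lost it without sham 2, sham 3, DAC 4 or DAC 5, and ENSSSCG00000050529 (0.065 to 0.102) without sham 3, DAC 5 or DAC 6, with a log2 difference as small as -0.33. ENSSSCG00000046817 (0.0757 to 0.121) lost it without sham 1, sham 3, DAC 4 or DAC 6. ENSSSCG00000048776 (0.0519 to 0.113) lost it without sham 1, sham 2, DAC 5 or DAC 6, ENSSSCG00000048556 (0.062 to 0.0782) without sham 1, sham 2 or DAC 5, and ENSSSCG00000049042 (0.0536 to 0.0736) without sham 2, sham 3 or DAC 4. ENSSSCG00000043820 is among the 11, but it was tested only through its high DAC values. The others that kept the call include ENSSSCG00000046256, ENSSSCG00000023627, ENSSSCG00000044727 and ENSSSCG00000036880.

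The classes by RefSeq position were described by their counts. Past the threshold were 9 of 60 tested members with a non-coding RefSeq gene only, 8 of 50 inside a coding gene, 5 of 36 that cover one, 3 of 29 with no RefSeq gene, 1 of 14 with a partial overlap and 2 of 9 on unplaced contigs, where 8.51% of all genes tested passed. The median log2 difference ran from -0.15 on the contigs and -0.07 in the members that cover a coding gene to 0.11 in those inside one. The members that cover a coding gene had a median level of 4.80 FPKM and those with a non-coding RefSeq gene only 3.09.

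All members but 1 had a listed coding gene on the same chromosome or contig. The median distance between edges was 11.3 kb, against 12.4 kb for all 812 lncRNAs, and 50 members lay within 1 kb, 98 within 10 kb and 177 within 100 kb of it. The starts faced each other on opposite strands in 66, of which 33 were within 1 kb. This is the arrangement of a promoter that is read in both directions. A further 50 lay downstream on the same strand, 44 upstream on the same strand and 39 with the ends facing.

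Difference and neighbour's difference had the same sign in 103 of 192 pairs in which both genes were tested (53.6%), against 55.9% of coding genes with their nearest coding gene. Within 1 kb it was 29 of 48 (60.4%), against 57.9% of coding pairs, and beyond 10 kb it was 49 of 99 (49.5%). Pearson's r of the log2 differences across the 192 pairs was 0.26, and 0.48 across the 48 pairs within 1 kb, where it was 0.13 for coding pairs. It was 0.24 across the 99 pairs beyond 10 kb and 0.27 across the 22 beyond 100 kb. The pairs come from the same 6 libraries, some share a neighbour, and genes that lie this close can share reads. By arrangement, within 10 kb, r was -0.03 over 38 pairs with facing starts, 0.50 over 23 with the lncRNA downstream on the same strand and 0.65 over 15 with it upstream on the same strand. Over 17 pairs with facing ends it was -0.18, although the sign was the same in 64.7%. Where a listed coding gene has a RefSeq position that holds or is covered by the member, r was 0.63 over 33 pairs on the same strand and 0.75 over 10 on opposite strands, although the sign was the same in 14 of the 33 and 7 of the 10. Of 25 members past the threshold with a tested neighbour, 5 had a neighbour past it too, and of all 193 members with a tested neighbour, 30 had one. Over all genes tested, 8.51% passed the threshold. The sign was that of the neighbour in 13 of the 25 (52%).

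**Figure D5:**
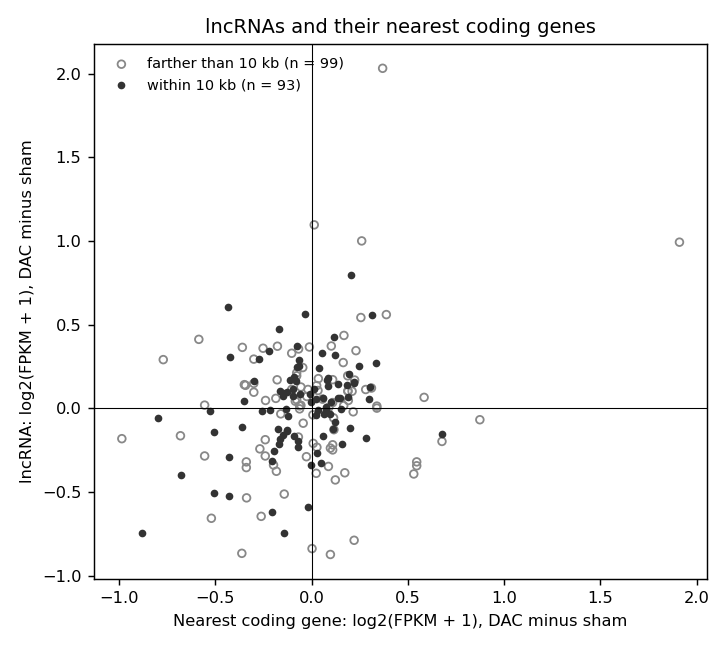
Difference in mean log2(FPKM + 1), DAC minus sham, of each lncRNA against that of its nearest listed coding gene. Filled points are the 93 pairs within 10 kb and open circles the 99 farther apart; most points lie within 0.5 of 0 on both axes, and 103 of the 192 fall in the quadrants of equal sign.

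Within 10 kb of listed genes of cardiac transcription factors lay a pair of members. ENSSSCG00000046589 (chr14:16403968-16459115, minus strand) begins 1.0 kb from HAND2, a factor of the developing right ventricle, and faces it. Its level was 18.9, 13.5 and 17.8 FPKM in the sham and 18.7, 13.5 and 16.4 in the DAC minipigs, nearly the same in both groups, with a log2 difference of -0.04 ± 0.17, whose sign turned in some alternatives. HAND2 had means of 120 and 122 FPKM. ENSSSCG00000039279 (chr6:107278748-107282632, minus strand) begins 215 bp from GATA6 and faces it as well. It had 3.74, 3.89 and 2.50 in the sham and 4.78, 4.15 and 2.85 in the DAC minipigs, a log2 difference of 0.17 ± 0.20 that did not pass the test, and GATA6 had means of 59.8 and 56.2 FPKM. In human the RNAs that face these factors are known as HAND2-AS1 and GATA6-AS1, names that the table does not use.

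The 200 members fell into 168 loci when those within 100 kb were joined, and 24 loci held several, 56 members in all. At chr9:49098669-49373356, ENSSSCG00000050772, which holds the microRNA genes MIR100, MIRLET7A-1 and MIR125B-1, had 3.24, 3.53 and 4.53 FPKM in the sham and 4.82, 8.28 and 2.62 in the DAC minipigs. ENSSSCG00000048525 and ENSSSCG00000046378, which lie within its span, had 8.42 and 3.82 FPKM in DAC 5. In all 3, DAC 5 was the highest and DAC 6 the lowest of the DAC samples, and none passed the test. Among the other members with a RefSeq microRNA, ENSSSCG00000042798 (MIR30B) and ENSSSCG00000048702 (MIR30D and MIR30B) overlap each other and had log2 differences of 0.02 and 0.13. ENSSSCG00000041959, within JAK1 and holding MIR101-2, differed by 0.02. The levels are those of the long transcripts, and microRNAs were not measured.

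On the side of CD34, a marker of endothelial and progenitor cells, 4 members at chr9:134956226-135014175 all had lower means in the DAC group. ENSSSCG00000041612 had 2.44, 2.03 and 2.29 FPKM in the sham and 1.81, 1.19 and 1.88 in the DAC minipigs, with no overlap and an unadjusted P of 0.0574 by limma. The log2 differences of the 4 were -0.34, -0.32, -0.28 and -0.19. CD34 itself, the nearest listed coding gene of 2 of the 4, was higher in the DAC group, with means of 21.6 FPKM in sham and 32.2 in DAC, a log2 difference of 0.55 and an unadjusted P of 0.00582 by limma. Beside ADAMTS9, a protease of the matrix, ENSSSCG00000051584 had 2.77, 3.66 and 6.32 in the sham and 1.34, 1.58 and 3.54 in the DAC minipigs, a log2 difference of -0.74 with an unadjusted P of 0.0531 by limma, and ENSSSCG00000050584 differed by -0.51. Sham 3 was the highest sham and DAC 6 the highest DAC sample in both. Inside ESRRG, a nuclear receptor of energy metabolism, 3 members had log2 differences of 0.05 to 0.21. These 3 loci were chosen after their values were seen, and none of their members passed the test.

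The spread between minipigs of a group was wider for the members, with the one below the filter included, than for coding genes. The coding genes were not matched to the members in level, and the part of level in this difference was not tested. The median SD of log2(FPKM + 1) within groups was 0.28, against 0.17 for the coding genes tested, and it was above 0.5 in 28 members (14%), against 4.85% of coding genes. The widest was ENSSSCG00000043851 (chr14:89890260-89919537), which covers the RefSeq gene C14H10orf71. It had 19.9, 151 and 24.3 FPKM in the sham and 26.3, 13.3 and 126 in the DAC minipigs, so that sham 2 and DAC 6 stood several fold above the other 4. Its log2 difference of -0.23 ± 0.98 became 0.67 without sham 2 and 0.45 without DAC 5.

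ENSSSCG00000047720 (chr3:39837628-39843580), upstream of PKD1, the gene of polycystin, was the member that was below the filter and so not tested in the main fit. It had 0.115, 0.110 and 0.233 FPKM in the sham and 0.160, 9.67 and 18.7 in the DAC minipigs. DAC 5 and DAC 6 were high and DAC 4 was at the level of the sham samples. PKD1 itself was lower in the DAC group, with means of 29.2 FPKM in sham and 20.8 in DAC. Its log2 difference was -0.48, with an unadjusted P of 0.025 by limma. ENSSSCG00000042966 (chr3:132456057-132463742), in the region of TMEM18, had 14.9, 0.116 and 4.29 in the sham and 3.86, 4.58 and 0.779 in the DAC minipigs, a range within the sham group that contained the whole DAC group. The ninth most abundant member, ENSSSCG00000048922 (chr1:40625377-40640292), 348 kb from GJA1, the gene of the gap junction protein connexin 43, had 48.8, 57.1 and 8.79 FPKM in the sham and 9.48, 11.2 and 34.9 in the DAC minipigs. Sham 3 was the lowest of all 6. Without it the log2 difference went from -0.87 to -1.69, with an unadjusted P of 0.0164 by limma.

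Values of 0 were rare, 4 in 4 members. ENSSSCG00000047379 was listed at 0 in DAC 4 and had 3.30 to 5.37 FPKM in the other 5 samples, and ENSSSCG00000042706 was listed at 0 in the same sample and had 2.87 to 4.45 in the others. ENSSSCG00000041985 and ENSSSCG00000043820 were listed at 0 in sham 2. A 0 among levels of several FPKM can be a failed estimate, so no absence is read from it.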

How the data were processed

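Ventricular RNA of 3 sham and 3 DAC minipigs was sequenced as paired ends after NEBNext Ultra library preparation. FPKM values were computed and deposited by the authors, with 1 column per minipig. HISAT2 and susScr11 are named in the submitters' processing notes, without version. The quantification program, its annotation and its handling of shared reads are not given in the sources used here. Every gene of the table had at least 0.5 FPKM in its highest sample. FPKM gives no read number, so the depth is unknown and precision rests on the spread between minipigs.

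With R 4.3.3 and limma 3.58.1, log2(FPKM + 1) was compared between groups by a linear model with a variance trend, for genes that reached 1 FPKM in 3 or more samples, with no covariates. P was two-sided, with Benjamini-Hochberg adjustment over all genes tested. The code of the fit was run on normal values simulated from its own estimates, which does not test the model on these data. Neighbours were the nearest listed coding genes by locus. Of 10604 symbols on chromosomes that are also in RefSeq, 99.78% overlapped its position in Sscrofa11.1. Figures used Python 3.11.15 and matplotlib 3.10.9.

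The members, the gene lists and the markers were chosen with earlier results of these data known. Named are the 12 most abundant members, those at the edge of the choice, up to 12 per direction with P under 0.05 by smallest P, known lncRNA symbols, members within 10 kb of listed cardiac genes and the 3 widest within groups. The alternatives were other pseudocounts, filters, scalings, sample weights and rankings, unmoderated variance, and each sample left out in turn. The values of a few genes are not reported here.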

Additional observations from a re-analysis of the deposited data

How the results depend on the processing

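A minimum of 5 FPKM left 55 members, of which 8 passed the threshold (14.5%, against 9.23% of all genes). Their median log2 difference was -0.07, against -0.037 for all genes. Among the 100 most abundant members 15 passed (15.2%, against 8.51%). Leaving out 1 sample gave 18 to 34 members past the threshold, where 5.44% to 9.33% of all genes passed, and 47 to 64 without overlap, where 21.9% to 28.8% of all genes did not overlap. The most members without overlap were without DAC 6 (64), sham 2 (58) and DAC 4 (53). Speckle and paraspeckle genes past the threshold numbered 1 with unmoderated variance and 0 to 3 with 1 sample left out. Of 16 named members that did not pass, 10 changed sign in some alternative and 3 passed in one. With quantile normalization the log2 difference became 0.00078 for ENSSSCG00000041875, 0.015 for ENSSSCG00000041935, 0.012 for ENSSSCG00000044913 and 0.018 for ENSSSCG00000046589. With the mitochondrially encoded genes left out it became 0.011 for ENSSSCG00000044913 and 0.0010 for ENSSSCG00000046589. It became 0.17 for ENSSSCG00000043851 with sample weights and 0.066 for ENSSSCG00000042966 with a pseudocount of 0.1. With 1 sample left out in turn it ran from -0.40 to 0.0055 for ENSSSCG00000041875, -0.23 to 0.075 for ENSSSCG00000041935, -0.20 to 0.96 for ENSSSCG00000041596, -1.13 to 0.67 for ENSSSCG00000043851, -0.16 to 0.13 for ENSSSCG00000044913, -0.26 to 0.021 for ENSSSCG00000016379, -0.34 to 0.079 for ENSSSCG00000049407, -0.30 to 0.13 for ENSSSCG00000028322, -0.18 to 0.077 for ENSSSCG00000046589 and -1.33 to 0.58 for ENSSSCG00000042966. The cause was not tested. The alternative that leaves out members overlapping a listed coding gene left out none. No paired analysis was made, because the paper assigned different minipigs at random to the groups and gives no pairing. Depth is unknown, and 3 minipigs a group limit what a difference can show.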
